A study of Homo sapiens with 4 samples.

Results

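The genes described here are the epidermal growth factor (EGF) receptor EGFR, its relative ERBB2, and 5 genes for ligands of this receptor family, namely AREG, EREG, HBEGF, TGFA and NRG1. They were chosen by symbol as a named set, and all 7 were found among the 33538 genes of the count matrices. The cells were HCEC 1CT, a human line from the colonic epithelium that TERT and CDK4 had made immortal, and they were measured by single-cell RNA sequencing with the APC knockdown as a model of early colorectal cancer. A short hairpin RNA that targets APC (shAPC), or a scrambled one (shScr), was delivered by virus, and cells were selected with puromycin and were harvested 3 or 7 days after transduction. The 4 groups are named by shRNA and day, from shScr day 3 to shAPC day 7. There was 1 library in each, so that no comparison here rests on replicates and no test between groups was run. The virus was retroviral in the sample labels and lentiviral in the methods. The kit was 10x 3′ v2 in the labels and in the study's supplementary sequencing statistics, and V3 in the methods. All groups shared the same medium, which held 20 ng/mL of EGF, hydrocortisone, insulin, transferrin, selenite and 2% FBS, so that a ligand of EGFR was supplied from outside in every library.

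Kept cells had 200 genes or more, 500 or more unique molecular identifiers (UMIs, the count of distinct RNA molecules) and less than 5% of them mitochondrial. This left between 788 and 2600 cells and between 28451455 and 39797418 UMIs per library. The limits removed 51.3% of the barcodes of shAPC day 7 against 24.1% to 28.8% of the others. The kept cells of shScr day 7 stood apart in depth, with a median of 1330 UMIs against 21029.5 to 49685.5 in the other libraries, and 1402 of its 2600 cells lay under 2000 UMIs. Pairs of libraries shared 1 to 19 barcodes, at most 2.41% of the smaller library. The targeted gene was lower in both shAPC libraries, with APC at 5.52 against 16.1 CPM (counts per 1e+06 UMIs of a library) at day 3 and 6.61 against 19.1 CPM at day 7. The epithelial label was borne out by some of its 9 markers only. KRT8 had 299 to 678 UMIs per library, KRT18 86 to 249, KRT19 73 to 200 and CLDN7 178 to 592, whereas EPCAM had 0 to 2, VIL1 0 to 2, CDH1 0 or 1, and KRT20 and CDX2 none. Together these genes summed to between 25.01 and 49.3 CPM, and the 7 mesenchymal genes (VIM, FN1 and collagens among them) to between 8814 and 11385 CPM. Of the other lists, the 3 endothelial genes had at most 5 UMIs per library, the 3 smooth muscle genes summed to 37.2 to 72.9 CPM, and the 5 immune genes to 17.7 to 29.8 CPM, nearly all of it CD68, with CD3E at 0 in every library.

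EGFR is a receptor tyrosine kinase that pairs with itself or with its relatives when a ligand binds, and that signals through RAS and ERK to drive growth. Its ligands are made as membrane-bound precursors and are released by metalloproteases such as ADAM17. In the colon this pathway sustains progenitor cells, and it is often active in colorectal tumours. AREG (amphiregulin), EREG (epiregulin), HBEGF (heparin-binding EGF-like growth factor) and TGFA (transforming growth factor alpha) bind EGFR. NRG1 (neuregulin 1) instead binds ERBB3 and ERBB4, while ERBB2 has no known ligand of its own and serves as their partner.

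The promoters of the 4 members whose levels are set against each other below are shown because AREG and EREG lie side by side and because AREG and HBEGF both had opposite shAPC/shScr ratios at the 2 days. Sequences are the 250 bases before the start site in RefSeq (GRCh38.p14), read on the strand of the gene, and 6 of the 7 members had an entry. Capitals mark the motif letters searched for on both strands, which were TGACGTCA (the cAMP response element, CRE), TGANTCA (the AP-1 element) and CTTTGAT (a TCF/LEF element of the Wnt pathway).
AREG, chr4:74444886-74445135, plus strand: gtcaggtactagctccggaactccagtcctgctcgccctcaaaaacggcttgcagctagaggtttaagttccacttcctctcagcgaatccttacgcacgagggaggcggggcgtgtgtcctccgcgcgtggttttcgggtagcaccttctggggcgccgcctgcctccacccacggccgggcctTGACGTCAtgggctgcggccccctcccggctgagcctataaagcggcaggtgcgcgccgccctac
EREG, chr4:74364895-74365144, plus strand: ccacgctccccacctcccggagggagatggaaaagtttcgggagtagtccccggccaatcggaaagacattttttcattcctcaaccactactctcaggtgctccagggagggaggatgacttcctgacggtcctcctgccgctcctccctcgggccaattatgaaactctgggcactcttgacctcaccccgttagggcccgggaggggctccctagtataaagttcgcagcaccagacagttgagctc
HBEGF, chr5:140346604-140346853, minus strand: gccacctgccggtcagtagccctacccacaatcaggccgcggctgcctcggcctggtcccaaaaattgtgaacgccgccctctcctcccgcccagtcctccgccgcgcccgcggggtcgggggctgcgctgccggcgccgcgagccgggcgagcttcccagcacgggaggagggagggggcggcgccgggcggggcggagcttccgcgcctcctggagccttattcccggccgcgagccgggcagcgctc
EGFR, chr7:55018767-55019016, plus strand: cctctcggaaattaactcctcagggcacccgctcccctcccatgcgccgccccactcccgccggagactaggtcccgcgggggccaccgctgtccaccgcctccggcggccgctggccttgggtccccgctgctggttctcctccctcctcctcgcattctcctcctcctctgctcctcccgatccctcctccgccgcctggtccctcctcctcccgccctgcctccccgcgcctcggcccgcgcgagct
AREG held 1 CRE, from -65 to -58 relative to the start site, and 1.65% of the 35116 promoters in the table held this element. No CRE was found in the same window of EREG, HBEGF or EGFR. A TGANTCA match was in 6.57% of all promoters, and it was found in ERBB2, from -222 to -216, and at a second, internal start site of EGFR, from -232 to -226 and from -136 to -130. The letters CTTTGAT, held by 2.26% of all promoters, were in none of the windows of the 6 members. A match describes letters only, and binding was not measured here. The gene EREG ended 56386 bases before the start of AREG on the same strand of chromosome 4 (hg38, GENCODE 44), where EREG spanned 74365145 to 74388749 and AREG 74445136 to 74455005. HBEGF lay on the minus strand of chromosome 5, from 140332843 to 140346603. EGFR lay on the plus strand of chromosome 7, from 55019017 to 55211628, with the antisense gene EGFR-AS1 inside it. ERBB2 spanned 39687914 to 39730426 on the plus strand of chromosome 17 and overlapped PGAP3 and MIEN1 on the opposite strand.

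EGFR was highest in the shAPC library of day 3, and the excess over shScr at day 3 was not seen at day 7. Its level, in CPM over the kept cells, was 37.1 in shScr day 3 (1478 UMIs), 66.0 in shAPC day 3 (2308 UMIs), 32.7 in shScr day 7 (1021 UMIs) and 30.6 in shAPC day 7 (870 UMIs). The shAPC day 3 library stood above the rest, and the intervals of shScr day 7 and shAPC day 7, 30.7 to 34.8 and 28.6 to 32.7 CPM, overlapped. These and all intervals below are 95% intervals that cover counting error only, and the spread between cultures is unknown. The log2 ratio of shAPC over shScr was 0.83 at day 3 (0.74 to 0.93), a 1.78-fold difference, and -0.10 at day 7 (-0.23 to 0.04). The median gene at or over 20 CPM was itself 0.28 higher in shAPC at day 3, and relative to it EGFR was 0.55 higher. With TMM scaling, which sets most genes equal, the EGFR ratio at day 3 was 0.45. The EGFR ratio at day 3 exceeded that of 92.0% of the genes at or over 5 CPM. As the mean of each cell's own CPM, in which shallow cells weigh as much as deep ones, the day 7 ratio of EGFR was 0.23 rather than -0.10, so its direction at day 7 rests on the way of summing.

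ERBB2, the partner receptor, differed little between shAPC and shScr at either day and was lower at day 7 in both arms. It stood at 15.7 CPM in shScr day 3, 16.8 in shAPC day 3, 12.4 in shScr day 7 and 12.5 in shAPC day 7, from 356 to 623 UMIs. Both day 3 libraries were above both day 7 libraries, and within each day the intervals overlapped. The log2 ratio of shAPC over shScr was 0.10 at day 3 (-0.06 to 0.27) and 0.02 at day 7 (-0.19 to 0.23). The sign at day 3 turned with the scaling, to -0.28 with TMM, -0.17 against the median gene and -0.26 with DESeq2 size factors. Day 7 over day 3, ERBB2 was at -0.34 in shScr (-0.53 to -0.16) and -0.42 in shAPC (-0.62 to -0.23), and the latter was -0.12 with TMM.

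AREG was higher in shAPC at day 3 and lower in shAPC at day 7. It was at 15.5 CPM in shScr day 3 (617 UMIs), 21.2 in shAPC day 3 (741), 28.7 in shScr day 7 (895) and 10.1 in shAPC day 7 (288). The shScr day 7 library was highest and shAPC day 7 lowest, and no interval of one library overlapped that of another. At day 7 the log2 ratio of shAPC over shScr was -1.50 (-1.70 to -1.31), and 0.301% of the genes at or over 5 CPM had a lower ratio. At day 3 it was 0.45 (0.30 to 0.61), of which 0.18 was left relative to the median gene and 0.07 with TMM. Over time, AREG was higher at day 7 than at day 3 in shScr, by 0.89 (0.74 to 1.04), above 99.4% of the genes. In shAPC it was lower at day 7, at -1.07 (-1.27 to -0.87), or -0.76 with TMM. The mean over cells of CPM gave -2.38 for shAPC over shScr at day 7 and 1.44 for day 7 over day 3 in shScr, so the size of both depends on how shallow cells are weighed.

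HBEGF followed AREG in the direction of its 2 ratios. It was at 8.79 CPM in shScr day 3 (350 UMIs), 13.6 in shAPC day 3 (475), 7.43 in shScr day 7 (232) and 4.36 in shAPC day 7 (124). The shAPC libraries were thus the highest and the lowest, and the shScr libraries lay between them with intervals that overlapped each other. The log2 ratio of shAPC over shScr was 0.63 at day 3 (0.43 to 0.83) and -0.77 at day 7 (-1.10 to -0.45). With TMM these were 0.25 and -0.78. In shAPC, day 7 over day 3 was -1.64 (-1.94 to -1.35), lower than all but 1.51% of the genes at or over 5 CPM, and -1.34 with TMM.

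NRG1 stood out in the shAPC library of day 3 only. Its level was 4.32 CPM in shScr day 3, 7.21 in shAPC day 3, 4.32 in shScr day 7 and 4.29 in shAPC day 7, from 172, 252, 135 and 122 UMIs. The intervals of the other 3 libraries overlapped almost in full. The log2 ratio of shAPC over shScr was 0.74 at day 3 (0.45 to 1.03) and -0.01 at day 7 (-0.38 to 0.35). With TMM the day 3 ratio of NRG1 was 0.36.

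EREG and TGFA were near the limit of detection. EREG had 29, 41, 19 and 19 UMIs in that same order of libraries, or 0.729, 1.17, 0.608 and 0.668 CPM. All 4 intervals overlapped, and the ratio of shAPC over shScr at day 3, 0.69, had an interval from -0.03 to 1.43. TGFA had no UMI in 3 libraries and 1 in shAPC day 7. A count of 0 allows a level of up to 0.0754 CPM in shScr day 3, 0.0859 in shAPC day 3 and 0.0961 in shScr day 7, set at 3 counts per library. No ratio is given for TGFA.

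**Figure D1:**
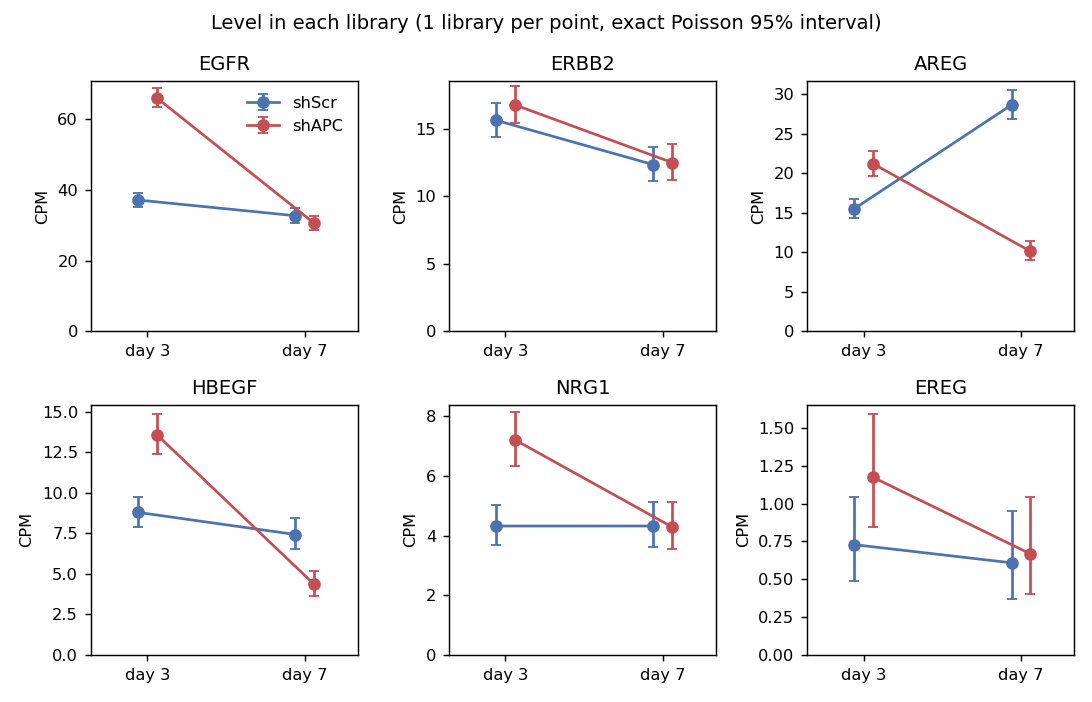
Level of 6 members in CPM (y axis, from 0, a scale per gene) at day 3 and day 7 (x axis) in shScr (blue) and shAPC (red), with 1 library per point and exact Poisson 95% intervals as bars. For AREG and HBEGF the shAPC point lies above shScr at day 3 and below it at day 7 on this scaling by total UMIs. For EGFR and NRG1 the intervals of the 2 arms are apart at day 3 and overlap at day 7. The bars do not hold the spread between cells.

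To compare the members with all genes, a gene was counted when it differed at least 2-fold on log2(CPM + 1) and reached 20 CPM in 1 of the 2 libraries compared. Of the 7 members, EGFR and AREG reached that level and 5 reached 5 CPM. At day 3, neither EGFR nor AREG was 2-fold apart between shAPC and shScr, beside 3.86% of 5175 genes higher and 0.425% lower in shAPC. That split was 200 higher and 22 lower, and 83 and 67 with TMM. At 1.5-fold EGFR was counted at day 3, as were 17.1% of all genes on the higher side. At day 7, AREG alone was 2-fold lower in shAPC, beside 1.77% of 4573 genes lower and 0.787% higher. The 81 lower and 36 higher genes became 58 and 46 relative to the median gene, and AREG was counted under each scaling tried. Between the days in shScr neither member was counted, beside 0.329% of 4556 genes higher and 0.79% lower at day 7. Between the days in shAPC, EGFR was 2-fold lower at day 7, at -1.11 (-1.23 to -0.998), beside 5.78% of 5176 genes lower and 0.058% higher. That call was lost with TMM, where the EGFR ratio was -0.81 and 126 genes were lower and 28 higher in place of 299 and 3. HBEGF lay under 20 CPM in every library. With the limit at 5 CPM it was counted as well between the days in shAPC, as 2-fold lower, beside 4.9% of 9711 genes.

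The difference between the ratios at the 2 days was described for each member by the day 7 ratio minus the day 3 ratio. For AREG it was -1.95 (-2.20 to -1.71), for HBEGF -1.40 (-1.77 to -1.03), for EGFR -0.93 (-1.09 to -0.77) and for NRG1 -0.75 (-1.20 to -0.30). ERBB2 was at -0.08 (-0.35 to 0.18) and EREG at -0.55 (-1.70 to 0.59), with 0 inside both intervals. The median gene moved between the days as well, from 0.28 to -0.10, and relative to it the differences were -1.58 for AREG, -1.03 for HBEGF, -0.56 for EGFR and -0.38 for NRG1.

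**Figure D2:**
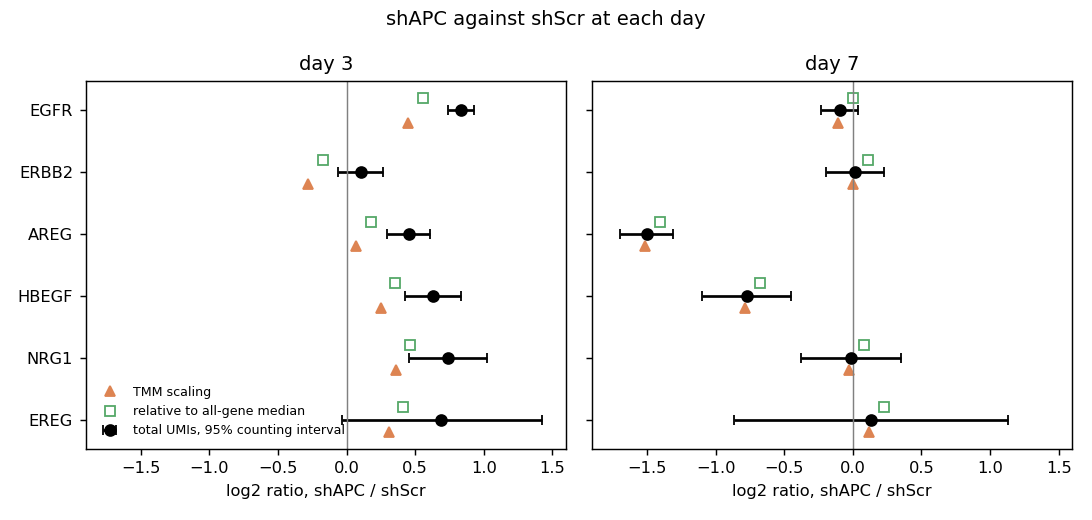
Log2 ratio of shAPC over shScr (x axis) for 6 members (rows) at day 3 (left) and day 7 (right). Circles with bars use total UMIs with 95% counting intervals, triangles TMM scaling and open squares the ratio relative to the all-gene median. AREG and HBEGF lie right of 0 at day 3 and left of it at day 7 on all 3 scales. For AREG at day 3 the TMM ratio is only 0.07, and triangles and squares have no interval drawn.

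Within libraries, AREG was spread less evenly over the cells than EGFR, HBEGF or NRG1. To compare cells at 1 depth, each cell was thinned at random to 5000 UMIs, which left between 616 and 1036 cells per library. The variance of the AREG count over its mean, which is 1 for counts spread at random, was 2.31 in shScr day 3, 1.78 in shAPC day 3, 2.14 in shScr day 7 and 1.74 in shAPC day 7. For EGFR it was 1.20, 1.08, 1.03 and 1.15, and for NRG1 it lay between 0.979 and 1.15. HBEGF was at 1.08, 1.45 and 1.07 in the first 3 libraries and had too few UMIs in shAPC day 7. Single cells held up to 73, 51, 46 and 30 AREG UMIs before thinning. The Poisson intervals above do not hold this spread between cells and are too narrow for AREG, and for HBEGF in shAPC day 3. Before thinning, single cells of shAPC day 3 also held up to 30 EGFR UMIs. How far the intervals are too narrow for the other members and libraries at full depth was not measured. Without thinning, 15.4% of the shScr day 3 cells, 22.3% of shAPC day 3, 11.3% of shScr day 7 and 7.37% of shAPC day 7 had an AREG UMI. At 2000 UMIs per cell these shares were 2.22%, 2.67%, 4.01% and 1.93%, with shScr day 7 now the highest. The interval of shScr day 7, 2.97% to 5.28%, overlapped those of shScr day 3 (1.36% to 3.42%) and shAPC day 3 (1.59% to 4.19%). At 5000 UMIs the shares were 4.82%, 5.52%, 5.89% and 3.52%. An EGFR UMI was found in 49.6%, 66.0%, 23.0% and 32.6% of the cells without thinning and in 5.90%, 9.81%, 5.09% and 5.80% at 2000 UMIs. Thinning left out 217, 115, 1402 and 391 shallower cells in the same order. The series holds a single cell line, so that there was no cell type that lacks these genes to set the share given by free RNA.

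Across cells of each library, no gene resembled a member closely. Over 5843 genes found in at least 5% of the thinned cells of each library, the highest of the smallest correlations was r = 0.0908 for EGFR, with FN1, and r = 0.0541 for ERBB2, with SHOC2. Both were under the 0.2 set for naming similar genes, and in counts this sparse such values are no finding. AREG, EREG, HBEGF, TGFA and NRG1 were in under 5% of the thinned cells of at least 1 library and were not correlated.

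Cells were also grouped by cell cycle phase, called from the S and G2M gene lists of Seurat among cells of at least 2000 UMIs. NRG1 was higher in cells called G2M than in cells called G1 in all 4 libraries. The levels were 9.72 against 3.46 CPM in shScr day 3, 11.1 against 6.43 in shAPC day 3, 8.59 against 3.29 in shScr day 7 and 8.68 against 3.86 in shAPC day 7, and the intervals did not overlap within any library. AREG went the other way, with 12.4 against 16.2 CPM in shScr day 3, 10.7 against 22.8 in shAPC day 3, 11.99 against 32.1 in shScr day 7 and 4.51 against 10.6 in shAPC day 7. Its G2M level was the lower one in each library, with intervals that overlapped in shScr day 3 only. The G2M sums of AREG held 13 UMIs in shAPC day 7 to 60 in shScr day 7. Intervals by phase pool UMIs and do not hold the spread between cells, so they are too narrow for AREG. The share of all genes that differed in this way between G1 and G2M was not computed. The phase differences are thus not shown to be particular to these members. The share of cells called G2M was 13.9%, 16.6%, 17.6% and 10.9% in the order of the libraries, from 112 to 211 cells. EGFR was lower in G2M in shAPC day 3, at 51.9 against 68.7 CPM, as was HBEGF, at 5.15 against 14.9 CPM. In the other 3 libraries the G1 and G2M intervals of both genes overlapped. Among G1 cells alone the shAPC/shScr ratio of AREG was -1.60 at day 7, as large as among all kept cells.

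**Figure D3:**
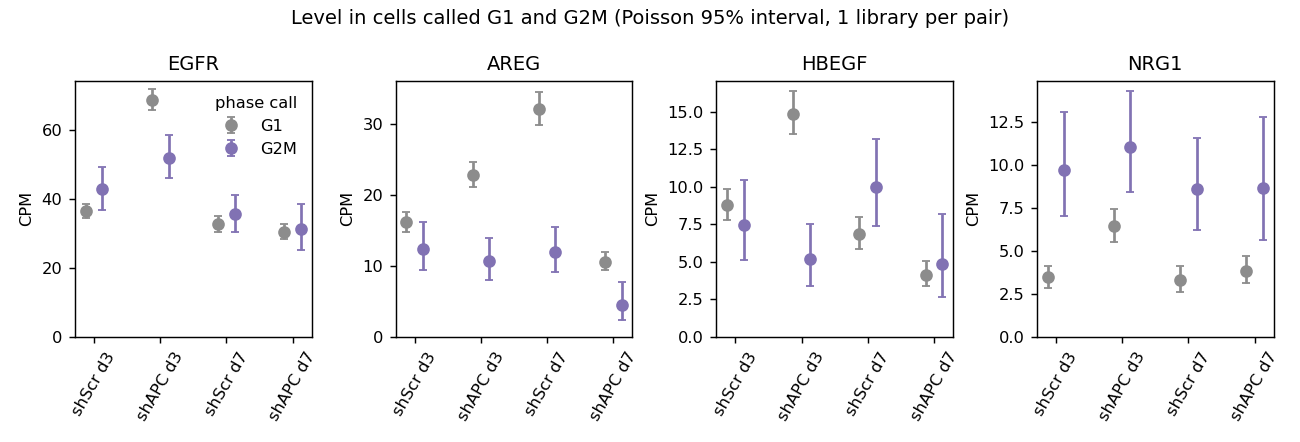
Level in CPM (y axis, from 0) of EGFR, AREG, HBEGF and NRG1 in cells called G1 (grey) and G2M (purple) in each library (x axis; d3 and d7 are the days), with Poisson 95% intervals as bars. NRG1 is higher in G2M in each of the 4 libraries and AREG lower.

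ATF3, a transcription factor induced by stress, differed far more between libraries than any member, at 1.03 CPM in shScr day 3, 44.7 in shAPC day 3, 15.4 in shScr day 7 and 3.37 in shAPC day 7. Cells of at least 5000 UMIs were grouped by whether an ATF3 UMI was found after thinning. In shAPC day 3, the 41 cells with ATF3 had 50.4 CPM of HBEGF against 10.1 in the 575 without, 55.4 against 17.9 of AREG, 96.8 against 63.5 of EGFR and 14.0 against 6.54 of NRG1. All 4 genes were higher in the ATF3 cells there, with no overlap of intervals, and ERBB2 was not, at 13.7 against 17.1 CPM. These intervals pool UMIs and do not hold the spread between cells. The share of all genes that differed in this way between cells with and without ATF3 was not computed in any library. The differences are thus not shown to be particular to the members. Of the pathway genes described below, ERRFI1 was also higher in the ATF3 cells of shAPC day 3, at 147 against 61.4 CPM. MAP2K1 was not, at 13.7 against 13.7 CPM. Counted by thinned cells, ATF3 was in 23.1% (8.97 to 43.6) of HBEGF cells against 5.93% (4.17 to 8.15) of cells without HBEGF. For EGFR it was 11.5% (6.94 to 17.5) against 5.01% (3.20 to 7.42), for AREG 14.7% (4.95 to 31.1) against 6.19% (4.37 to 8.46). For NRG1 it was 10% (1.23 to 31.7) against 6.54% (4.69 to 8.84). Only the HBEGF intervals were apart. In shScr day 7, the 11 cells with ATF3 had 133 CPM of AREG against 25.7 and 41.5 of HBEGF against 6.89, while EGFR was at 35.3 against 33.3. In shAPC day 7, the 15 cells with ATF3 had 83.9 CPM of EGFR against 29.8 and 25.8 of AREG against 10.0. In shScr day 3, 7 cells held ATF3, with 1 AREG UMI between them. Without the ATF3 cells the shAPC/shScr ratios at day 3 were 0.19 for AREG (0.03 to 0.36), 0.20 for HBEGF (-0.03 to 0.42), 0.77 for EGFR (0.67 to 0.86) and 0.63 for NRG1 (0.32 to 0.93). At day 7 they were -1.36 for AREG and -0.74 for HBEGF. Leaving these cells out thus took most of the day 3 excess of AREG and HBEGF by total UMIs. It left the EGFR ratio and the day 7 ratios close to their values in all cells. In all kept cells the median gene was itself 0.28 higher in shAPC at day 3. With TMM the day 3 ratios there were 0.07 for AREG and 0.25 for HBEGF before any cell was left out.

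The barcodes outside the limits gave a further view of the members. Among the removed barcodes AREG was at 14.6 CPM in shScr day 3, 10.1 in shAPC day 3, 37.5 in shScr day 7 and 6.47 in shAPC day 7. The day 7 order was that of the kept cells, whereas at day 3 shAPC was not above shScr, with intervals that overlapped. HBEGF in removed barcodes was likewise similar at day 3, at 9.49 and 8.81 CPM, and lower in shAPC at day 7, at 2.94 against 6.18 CPM. EGFR was at 48.1, 71.7, 35.3 and 37.2 CPM in the removed barcodes, with shAPC day 3 the highest again. NRG1 was at 8.44, 7.01, 4.77 and 4.67 CPM there, so that its excess in shAPC day 3 was not found in the removed barcodes. In the kept shScr day 7 cells under 2000 UMIs, AREG was at 56.2 CPM (42.8 to 72.5) against 27.7 in the deeper cells. Without the kept cells under 2000 UMIs, its level in shAPC day 7 was 10.2 CPM, so that the day 7 difference was also found among the deeper cells alone.

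The rest of the pathway was described by 5 lists of 61 genes. The lists were chosen with earlier results of these data known, so their counts beside all genes are descriptions only. Of the 8 other family members, none reached 20 CPM. BTC (betacellulin, a further EGFR ligand) had 13, 40, 27 and 37 UMIs in the order of the libraries, and NRG2 had 4, 18, 0 and 31. The receptors ERBB3 and ERBB4, which bind NRG1, had at most 6 UMIs in any library, and the genes for EGF, EPGN, NRG3 and NRG4 at most 5. The ligand shedding list holds the proteases and their cofactors. None of its 6 genes tested at day 3 or 3 at day 7 was 2-fold apart between shAPC and shScr. Of all genes, 3.86% were 2-fold higher and 0.425% lower at day 3, and 0.787% and 1.77% at day 7, so few were to be counted in lists this short. ADAM17, the main releasing protease of AREG and HBEGF, was at 18.1 CPM in shScr day 3, 26.6 in shAPC day 3, 17.7 in shScr day 7 and 18.6 in shAPC day 7. Its iRhom cofactor RHBDF2 was at 12.9, 21.0, 11.1 and 14.9 CPM. The median log2 ratio of the shedding list was 0.33 at day 3 and 0.00 at day 7, against 0.28 and -0.10 for all genes.

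Among 20 genes of adaptors and downstream signalling, 12 were tested at each day and 1 was 2-fold lower in shAPC at both, while none was 2-fold higher. Of all genes, 0.425% were 2-fold lower at day 3 and 1.77% at day 7. This was MAP2K1, which encodes the kinase MEK1 between RAF and ERK. It was at 34.2 CPM in shScr day 3, 13.6 in shAPC day 3, 36.1 in shScr day 7 and 11.1 in shAPC day 7. Both shAPC libraries were below both shScr libraries, by -1.33 at day 3 (interval -1.49 to -1.18) and by -1.71 at day 7 (interval -1.89 to -1.52) on the log2 scale. The list as a whole had a median of -0.04 at day 3 and -0.24 at day 7, against 0.28 and -0.10 for all genes.

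The feedback inhibitors and trafficking genes held 1 gene past 2-fold, and it was at day 7. ERRFI1 (MIG6), an inhibitor that binds the EGFR kinase, was at 97.6 CPM in shScr day 3, 68.6 in shAPC day 3, 106 in shScr day 7 and 52.1 in shAPC day 7. It was lower in shAPC at both days, by log2 ratios of -0.51 (-0.58 to -0.43) and -1.02 (-1.11 to -0.93). None of the 7 genes tested at day 3 and 1 of the 6 at day 7 passed 2-fold, beside 1.77% of all genes 2-fold lower at day 7. The day 7 ratio of ERRFI1 was -0.93 relative to the median gene, which is under 2-fold, and -1.03 with TMM. The list's median was 0.20 at day 3 and -0.17 at day 7, against 0.28 and -0.10 for all genes.

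In the list of ERK response genes, 3 of 11 tested genes were 2-fold higher in shAPC at day 3 and none was lower, beside 3.86% and 0.425% of all genes, while at day 7 none of 11 was 2-fold apart. The 3 were PHLDA1, the transcription factor gene EGR1 and IER3, all induced early by growth factors. Because the list was chosen with earlier results of these data known, its count is not an independent excess over all genes. PHLDA1 was at 76.0 CPM in shScr day 3, 204 in shAPC day 3, 104 in shScr day 7 and 102 in shAPC day 7. EGR1 was at 35.7, 86.7, 55.6 and 62.2 CPM, and IER3 at 100.1, 203, 122 and 115 CPM in the same order. As with EGFR and NRG1, the shAPC day 3 library was the highest for each. Their log2 ratios at day 3 were 1.43 (1.36 to 1.49), 1.28 (1.19 to 1.37) and 1.02 (0.96 to 1.08), which became 1.05, 0.90 and 0.64 with TMM, so that only PHLDA1 stayed past 2-fold there. At day 7 they were -0.03, 0.16 and -0.08. The median of the list was 0.34 at day 3 and -0.36 at day 7, against 0.28 and -0.10 for all genes. Between the days, no gene of the 5 lists at or over 20 CPM was past 2-fold on log2(CPM + 1) in either arm. PHLDA1 in shAPC fell just short, from 204 to 102 CPM. Of all genes, 5.78% were 2-fold lower and 0.058% higher at day 7 in shAPC, and 0.79% and 0.329% in shScr. At 1.5-fold, 6 of 11 ERK response genes were lower at day 7 in shAPC and none higher, beside 1245 of 5176 genes lower. The median of that list was -0.64 in shAPC, against -0.34 for all genes.

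**Figure D4:**
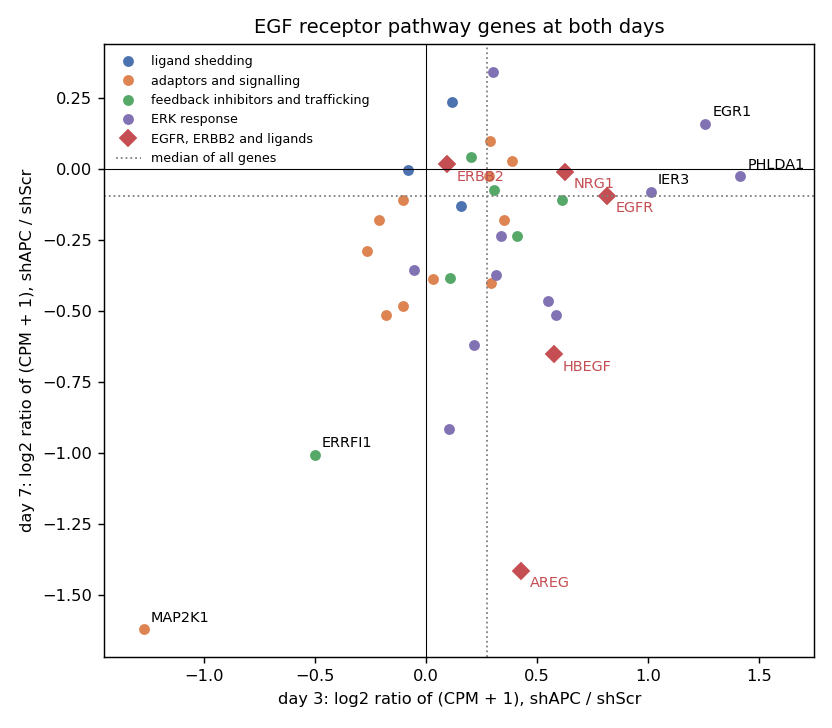
Log2 ratio of (CPM + 1) of shAPC over shScr at day 3 (x axis) and day 7 (y axis) for 32 pathway genes at or over 20 CPM at both days (circles, coloured by list) and 5 members (diamonds). Dotted lines mark the median of all genes. MAP2K1 and ERRFI1 lie to the lower left, PHLDA1, EGR1 and IER3 to the right, and AREG at the bottom.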

How the data were processed

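The authors aligned the reads to hg38 with Cell Ranger and deposited, per library, a matrix of raw UMI counts over called barcodes. Per the file headers, version 3.0.2 counted the shScr libraries and version 3.0.0 the shAPC ones, so software version and shRNA cannot be told apart. The study itself gives version 3.0.0 without a difference between libraries. The annotation release and the cell calling were not given in the sources used here. The study's ComBat and imputation steps were not applied.

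UMIs were summed over kept cells and scaled to CPM by their total, with exact Poisson 95% intervals for levels, exact conditional binomial (Clopper-Pearson) intervals for ratios and exact binomial intervals for shares. The difference of 2 ratios has a normal (Wald) interval. Barcodes were labelled by phase with scanpy 1.11.5 and the Seurat 5.3.0 lists (43 S and 54 G2M genes). No doublet caller was run, and leaving out the 5% of cells with the most UMIs served as an alternative. TMM came from edgeR 4.0.16 and size factors from DESeq2 1.42.0, without their tests. Statistics were run in Python 3.11.15 with numpy 2.4.6 and scipy 1.17.1, and were tested on simulated data. The simulation drew Poisson counts without spread between cells and checked genes at or over 20 CPM. It therefore says nothing of that spread or of members under that level.

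The 7 members and the lists were chosen with earlier results of these data known. Named genes were the members, plus up to 6 list genes per comparison past 2-fold at 20 CPM. ADAM17, RHBDF2, BTC and other family members were named outside that rule, after their values were seen, as was CD68. No p-value was computed. Alternatives varied scaling, cell limits, level limit, pseudocount and fold.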

Additional observations from a re-analysis of the deposited data

Results flagged for a closer look

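AREG and HBEGF were picked out because their shAPC/shScr ratios had opposite signs at the 2 days, each with a counting interval clear of 0. Those intervals are by total UMIs, do not hold the spread between cells, and are too narrow for AREG and for HBEGF in shAPC day 3. The log2 ratio of AREG was 0.45 at day 3 and -1.50 at day 7. That of HBEGF was 0.63 at day 3 and -0.77 at day 7. With 1 library per group the difference between the days was not tested. The day 3 ratios were 0.07 for AREG and 0.25 for HBEGF with TMM, whereas the day 7 ratios were -1.51 and -0.78. Without the 5% of cells with the most UMIs, the day 3 ratios were 0.26 for AREG and 0.24 for HBEGF. The day 7 ratios were then -1.22 and -0.81. Among the removed barcodes neither gene was higher in shAPC at day 3, at 10.1 against 14.6 CPM for AREG and 8.81 against 9.49 CPM for HBEGF.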

How the results depend on the processing

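The number of members past 2-fold was 0 at day 3, 1 at day 7 (AREG), 0 between the days in shScr and 1 between the days in shAPC (EGFR). At 1.5-fold it became 1 at day 3 (EGFR higher, beside 883 of 5175 genes), 1 between the days in shScr (AREG higher, beside 142 of 4556) and 2 between the days in shAPC (EGFR and AREG lower, beside 1245 of 5176). At a limit of 100 CPM it was 0 at day 7 and 0 between the days in shAPC, because no member reached that level. The mean over cells of CPM gave 1 between the days in shScr (AREG) and, in shAPC, AREG in place of EGFR. Between the days in shAPC it was 0 with TMM, 0 with DESeq2 size factors, 0 with totals that leave out mitochondrial and ribosomal protein genes, 0 relative to the median gene, 0 with all deposited barcodes, 0 with a mitochondrial limit of 10% and 0 with a pseudocount of 5 CPM. It was 2 with only G1 cells or a pseudocount of 0.5 CPM (EGFR and AREG), and 2 with a limit of 5 CPM or none (EGFR and HBEGF). Beyond what fewer or more genes tested implies, the cause was not tested. Of 240 alternative values of single ratios, 189 moved by less than their counting interval and 51 by more, and no ratio whose interval was clear of 0 changed sign.

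Over all genes, 200 higher and 22 lower at day 3 became 83 and 67 with TMM, 84 and 60 with DESeq2, 110 and 45 relative to the median, and 106 and 21 without the cells with the most UMIs. At day 7, 36 and 81 became 67 and 191 with the mean over cells, and 72 and 81 with totals without mitochondrial and ribosomal protein genes. Between the days, 15 and 36 in shScr became 108 and 65 with the mean over cells, and 3 and 299 in shAPC became 28 and 126 with TMM or DESeq2. Leaving out kept cells under 2000 UMIs, an alternative chosen after seeing the data, kept the number of members at 0, 1, 0 and 1.

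No paired analysis was possible because each group held 1 library, and leaving out a library was not an option for the same reason. Depth limits EREG and TGFA, for which no difference was detectable.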
